A study of Mus musculus with 6 samples.

Results

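The collagen genes of the mouse lung were examined in Nfat5(SMC)-/- and Nfat5fl/fl mice kept for 7 days in 10% oxygen. The members were all probe sets whose gene symbol is Col, a number, a, and a number, and the array measured 44 such genes among 25428 probe sets. RNA came from a lung lobe of each of 6 male mice and was hybridised to GeneChip Mouse Gene 2.0 ST arrays, which carry probes along the whole length of a transcript. Both groups carried floxed Nfat5 alleles. In the 3 Nfat5(SMC)-/- mice, tamoxifen activated a Cre recombinase fused to a modified oestrogen receptor (SM-MHC-CreERT2), which the smooth muscle myosin heavy chain promoter drives and which is carried by males only. The 3 Nfat5fl/fl mice received miglyol, the solvent, so tamoxifen exposure and loss of Nfat5 cannot be told apart. Every lung was hypoxic. The mice are numbered 1, 2 and 4 in each group, and those numbers are used below.

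Collagens are secreted proteins of 3 chains wound into a triple helix. Fibrillar collagens (types I, II, III, V, XI, XXIV and XXVII) form the banded fibres that give the lung its tensile strength, and type V sets the start and the width of type I fibrils. Type IV collagen forms the sheet-like network of basement membranes under endothelium, epithelium and around smooth muscle. The other types link or coat these structures: beaded filaments (type VI), hexagonal networks (VIII, X), anchoring fibrils (VII), fibril-associated collagens with an interrupted helix, transmembrane collagens, and the multiplexins (XV, XVIII), which sit between basement membrane and stroma. In chronic hypoxia, the walls of pulmonary arteries are known to thicken and to gain collagen. NFAT5 is a transcription factor known for its response to hypertonic and to mechanical stress.

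Nfat5 itself, the targeted gene, was measured at a log2 expression of 9.18, 8.62 and 9.21 in the control lungs, in the order of the numbers, and at 8.23, 7.72 and 7.89 in the lungs of the Nfat5(SMC)-/- group. All Nfat5(SMC)-/- lungs were lower than all Nfat5fl/fl lungs. The difference was -1.06 (SE 0.20, adjusted p = 0.0707 by limma), short of the threshold of 0.05. Which of its probes lie in the deleted stretch was not examined. In a whole lobe, fewer cells of a type and less RNA per cell cannot be told apart, here or for any gene below. The lung was recognisable by Sftpc, the surfactant protein of alveolar type II cells, at 13.31 to 13.65 in all 6 mice, and the smooth muscle gene Myh11 lay at 8.83 to 9.25. Nfat5(SMC)-/- mouse 1 stood apart from the other arrays, with a mean correlation of 0.9703 with the rest of its group, against 0.98 to 0.9907 for the other 5 lungs. Over all probe sets, 208 passed the threshold (66 higher and 142 lower in Nfat5(SMC)-/-), and this count was 980 without that lung and 0 without any one of the other 5.

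No collagen gene passed the threshold. The smallest adjusted p was 0.0758, for Col5a1, where 0.818% of all probe sets passed. The 44 differences ran from -0.26 to 0.49 on the log2 scale with a median of 0.14, while the median over all probe sets was 0.00. The collagen median was 0.09 without Nfat5(SMC)-/- mouse 1 and 0.08 without that mouse and Nfat5fl/fl mouse 2. Of the 44 genes, 33 were measured higher and 11 lower in Nfat5(SMC)-/- lungs. Collagen genes are long, with a median span of 114 kb in the genome against 14.9 kb over all probe sets, and after removal of the trend of the differences with span (a lowess line) 41 lay above 0 and 3 below, and their median became 0.21. At an unadjusted p under 0.05, 6 genes were higher (Col5a1, Col1a1, Col6a2, Col15a1, Col18a1 and Col1a2) and 0 lower, against 8.19% of all probe sets higher and 11.1% lower. The groups did not overlap, with all Nfat5(SMC)-/- lungs above all Nfat5fl/fl lungs, for 8 genes, or 18.2% of the collagens, against 11.8% of all probe sets. They did not overlap in the opposite direction for 0 collagens, against 15.0% of all probe sets. Among the 26 collagens above the array median of 4.96, the non-overlapping share was 23.1% higher, where 15.6% of all probe sets above that median were higher and 20.8% lower. The methods' t-test gave 5 collagens under an unadjusted p of 0.05, all of them higher. After Benjamini-Hochberg adjustment it gave 0 collagens and 0 of all probe sets. At the unadjusted p of that test, the share of collagens was below the share of all probe sets when both directions were counted together. For higher values alone, the share of collagens was above that of all probe sets. The plot of all differences shows the 3 multi-gene classes whose medians were highest, the multiplexins at 0.38 and the fibrillar and transmembrane collagens at 0.21 each (the last resting on Nfat5(SMC)-/- mouse 1), beside the type IV network at -0.02, which became 0.11 after the span correction.

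**Figure D1:**
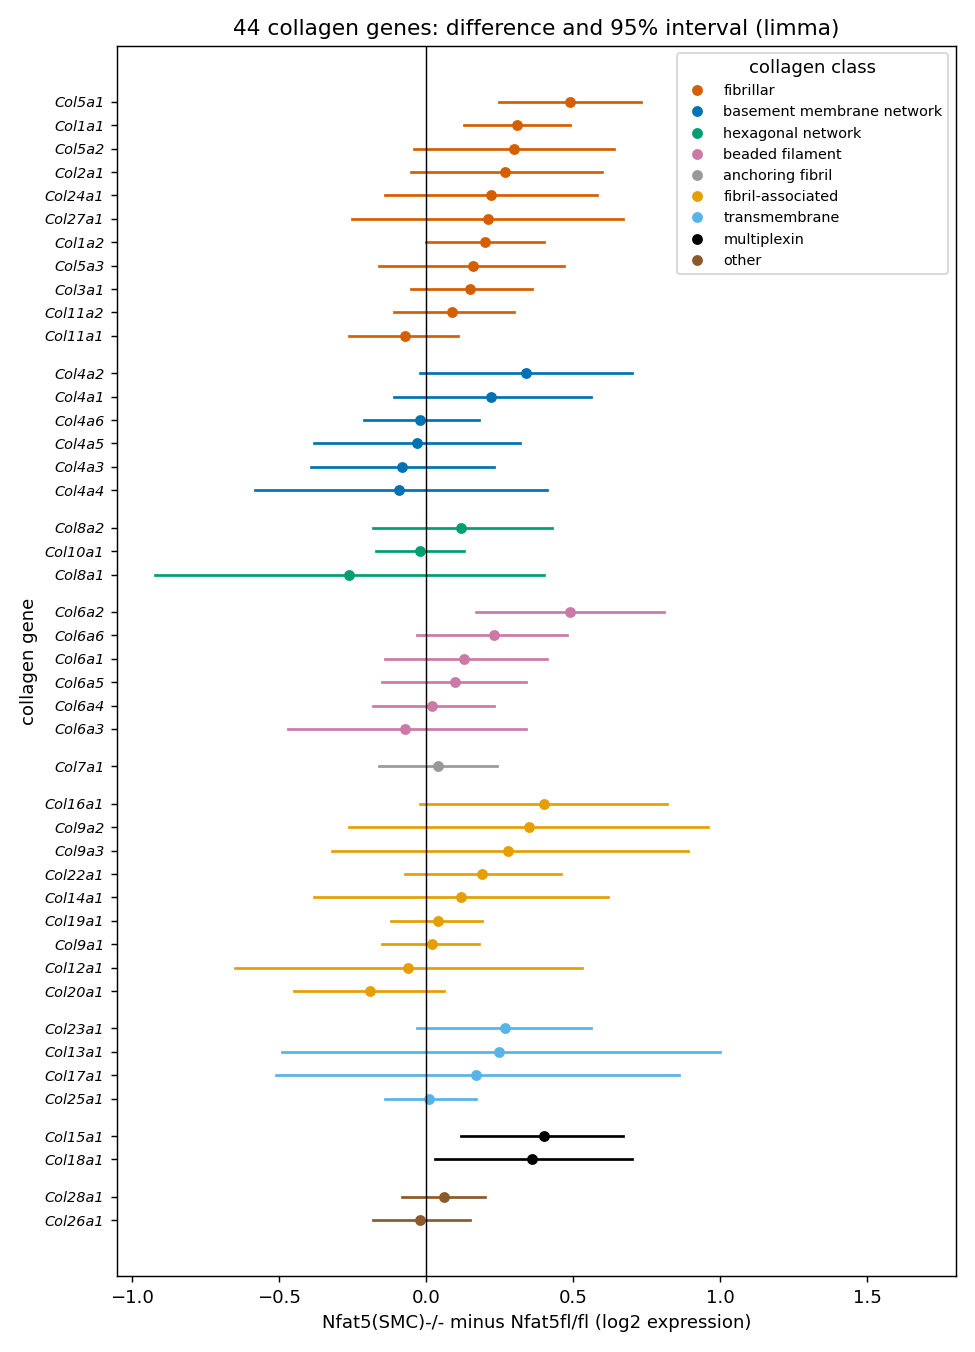
Difference in log2 expression (Nfat5(SMC)-/- minus Nfat5fl/fl, n = 3 each) of the 44 collagen genes by structural class, with the 95% interval from limma as a line. The points run from -0.26 (Col8a1) to 0.49 (Col5a1 and Col6a2), and most intervals include 0.

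The call of 0 depended on how the lungs were weighted, and so did the count over all probe sets. In each setting below, the share of collagens that passed was near the share of all probe sets. With array weights, 5 of the 44 collagens passed, all higher (Col15a1, Col1a1, Col1a2, Col5a1 and Col6a2), where 3263 of all 25428 probe sets passed. Without Nfat5(SMC)-/- mouse 1, Col5a1 and Col15a1 passed, where 980 of all probe sets passed. Without both that mouse and Nfat5fl/fl mouse 2, Col15a1 passed as higher and Col8a1 as lower, where 1452 of all probe sets passed. That control was the highest of its group in most type IV chains, but its correlation with its group (0.9871) was close to that of the other controls.

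The regulatory sequences of the genes that the comparisons below turn on are shown first, because the values of chains that build one protein are set side by side later. RefSeq windows were at hand for 35 of the 44 collagens (38 windows, build GRCm38.p6). Each sequence is the 250 bases before an annotated transcript start, 5′ to 3′ on the gene's strand, and capitals mark matches on either strand to the GC box that Sp factors bind (letters GGGCGG), to the CCAAT box (its own letters), to the TATA box (letters TATAAA) and to TGGAAA, which opens the element that NFAT5 binds. The windows lie at chr2:27886175-27886424 on the plus strand (Col5a1), chr6:4505368-4505617 on the plus strand (Col1a2), chr10:76726045-76726294 on the minus strand (Col6a1) and chr10:76623631-76623880 on the minus strand (Col6a2). Col6a2 has 2 annotated starts, and the window shown lies before the more upstream one.
Col5a1: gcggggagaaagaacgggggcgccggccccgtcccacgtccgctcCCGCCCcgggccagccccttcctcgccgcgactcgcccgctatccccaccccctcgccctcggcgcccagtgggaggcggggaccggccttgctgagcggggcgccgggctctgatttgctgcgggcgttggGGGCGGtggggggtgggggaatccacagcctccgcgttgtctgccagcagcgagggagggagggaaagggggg
Col1a2: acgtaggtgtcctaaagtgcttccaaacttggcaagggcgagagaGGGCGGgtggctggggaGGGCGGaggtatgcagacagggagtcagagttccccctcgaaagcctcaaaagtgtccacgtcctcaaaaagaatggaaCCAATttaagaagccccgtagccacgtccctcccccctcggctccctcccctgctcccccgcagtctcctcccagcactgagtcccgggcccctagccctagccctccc
Col6a1: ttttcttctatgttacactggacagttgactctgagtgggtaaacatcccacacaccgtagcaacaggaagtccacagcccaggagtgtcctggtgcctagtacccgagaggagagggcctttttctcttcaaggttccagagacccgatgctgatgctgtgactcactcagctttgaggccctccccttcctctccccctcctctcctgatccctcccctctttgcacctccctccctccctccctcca
Col6a2: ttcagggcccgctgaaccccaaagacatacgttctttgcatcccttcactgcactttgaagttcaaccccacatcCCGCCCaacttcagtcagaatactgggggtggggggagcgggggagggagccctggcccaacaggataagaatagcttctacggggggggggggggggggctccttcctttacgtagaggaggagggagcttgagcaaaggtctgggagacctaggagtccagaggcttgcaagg
Col5a1 held 2 GC boxes, Col1a2 held 2 GC boxes and 1 CCAAT box, the Col6a2 window shown held 1 GC box, and Col6a1 held none of the motifs. The other Col6a2 window, at chr10:76623405-76623654, held 3 GC boxes, of which a pair overlaps, and 1 TGGAAA. A GC box was found in 57.9% of the collagen windows and in 32.7% of all 32851 windows, the CCAAT box in 34.2% and 33.8%, the TATA box in 13.2% and 12.4%, and TGGAAA in 10.5% (Col4a6, Col6a2, Col6a4 and Col8a2) and 18.6%. These matches describe letters in a window and no binding was measured.

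Col4a1 and Col4a2, which encode the chains of the common type IV collagen, are transcribed away from each other, and their annotated starts lie 21 bases apart on opposite strands.

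Of the 11 fibrillar collagens, 10 were measured higher and 1 (Col11a1) lower in Nfat5(SMC)-/- lungs, the latter turning to 0.06 after the span correction, with a median of 0.21 and 0 past the threshold. The 7 above the array median were all measured higher, by 0.15 to 0.49, though Col5a3 and Col27a1 rested on Nfat5(SMC)-/- mouse 1. Col5a1, which encodes the main chain of type V collagen, lay at 6.80, 6.83 and 6.71 in the controls (values are given in the order of mice 1, 2 and 4 throughout), and at 7.14, 7.46 and 7.20 in the Nfat5(SMC)-/- group. The lowest Nfat5(SMC)-/- lung was above the highest control. The difference was 0.49 (SE 0.10, 1.40-fold, adjusted p = 0.0758), and between 0.39 and 0.55 when any one lung was left out. Its partner chain Col5a2 lay at 6.58, 6.70 and 6.59 in controls and at 7.16, 6.98 and 6.64 in Nfat5(SMC)-/- lungs, where mouse 4 lay within the control range (difference 0.30, SE 0.14, adjusted p = 0.305). Col5a3, the remaining type V chain, differed by 0.16 (adjusted p = 0.572), or by 0.04 without Nfat5(SMC)-/- mouse 1.

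Type I collagen is made of a pair of chains from Col1a1 and a single chain from Col1a2. Col1a1 was measured at 10.06, 10.15 and 10.02 in Nfat5fl/fl and at 10.31, 10.47 and 10.39 in Nfat5(SMC)-/- lungs. The groups did not overlap, and the difference of 0.31 (SE 0.07, 1.24-fold, adjusted p = 0.103) exceeded the SD of either group (0.07 and 0.08). Col1a2 was measured at 9.99, 10.01 and 9.85 against 10.06, 10.24 and 10.15. Here too all Nfat5(SMC)-/- lungs were above all controls, but by a smaller step of 0.20 (SE 0.08, 1.15-fold, adjusted p = 0.257). Within each lung, Col1a1 exceeded Col1a2 by 0.07 to 0.17 in controls and by 0.22 to 0.25 in Nfat5(SMC)-/- lungs, so the gap between both probe sets widened by 0.11 with no overlap. The size of that gap says nothing of the proportion of both messages, since the probe sets differ.

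Col3a1, which encodes the chain of type III collagen in extensible tissue, lay at 9.80, 9.74 and 9.70 in controls and at 9.96, 9.99 and 9.76 in Nfat5(SMC)-/- lungs. Mouse 4 of the Nfat5(SMC)-/- group was within the control range, and the difference was 0.15 (95% interval -0.05 to 0.36, adjusted p = 0.379). Col2a1, the chain of cartilage collagen, was dim, at 4.86, 4.56 and 4.66 against 5.20, 4.92 and 4.78, which overlap (difference 0.27, adjusted p = 0.334). Its signal was near the array median, and of 11 chondrocyte markers 9 were below that median, with the cartilage genes Acan, Comp, Cnmd and Matn1 below or near the lower quartile of 4.30. The other markers, Chad and Matn4, lay above the median in every lung, at 7.30 to 8.17 and at 7.36 to 8.01. The remaining fibrillar genes differed by -0.07 (Col11a1), 0.09 (Col11a2), 0.21 (Col27a1) and 0.22 (Col24a1). Col24a1 and Col27a1 were high in Nfat5(SMC)-/- mouse 1 alone, at 5.04 and 6.42, while the other 5 lungs spanned 4.43 to 4.54 and 5.70 to 5.86, and without that mouse their differences were 0.05 and -0.01. The fibrillar median was 0.15 without that mouse and 0.12 without it and Nfat5fl/fl mouse 2.

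**Figure D2:**
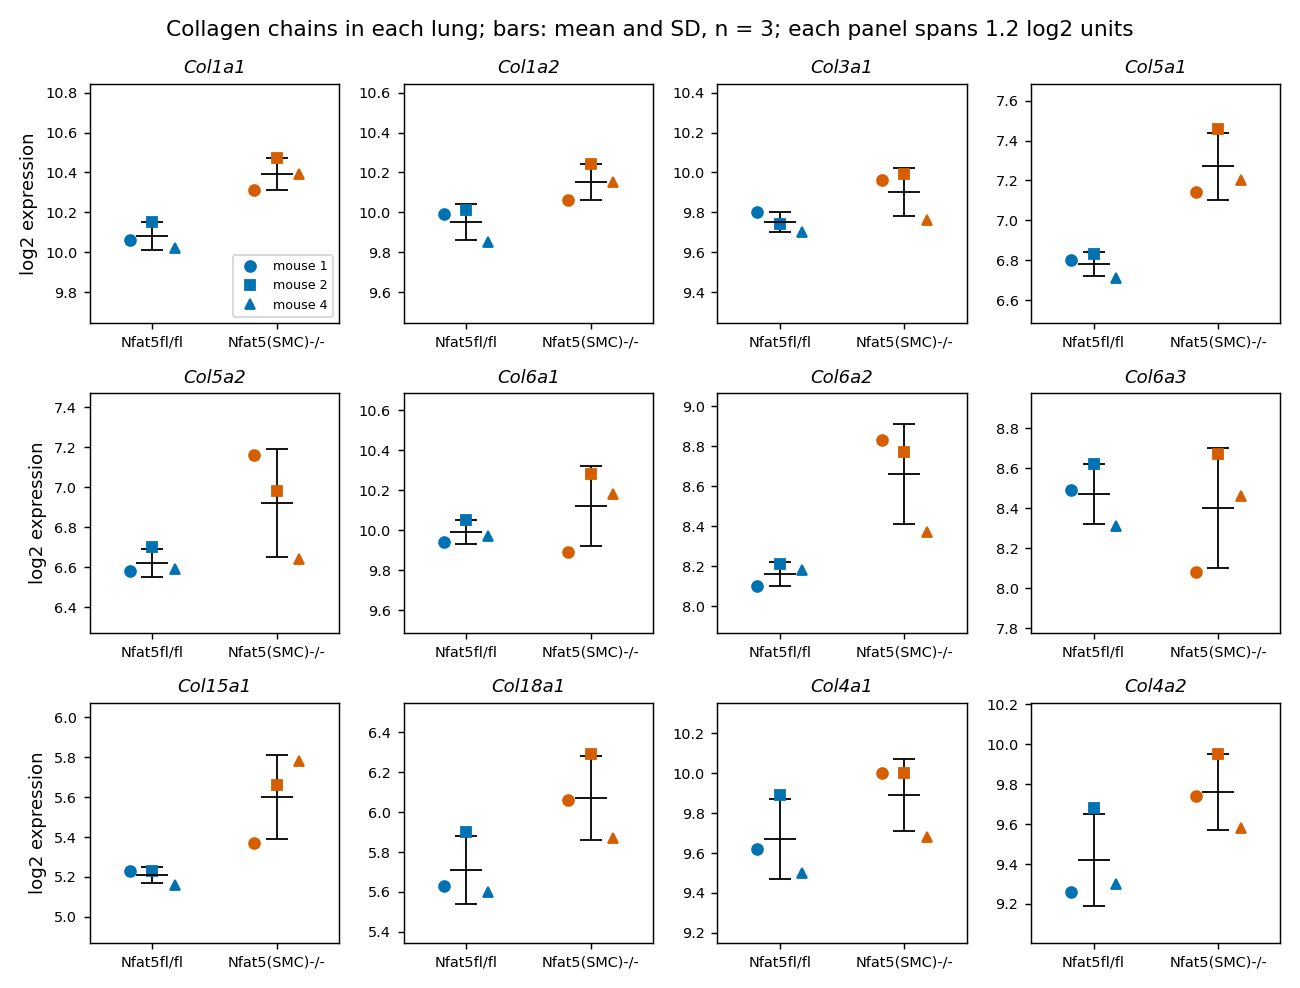
Log2 expression of 12 collagen chains in each lung (symbols by mouse number), with the group mean and SD (n = 3), each panel spanning the same range on its own offset. Col1a1, Col1a2, Col5a1, Col6a2 and Col15a1 show no overlap between groups, whereas Col4a1, Col4a2, Col6a1 and Col6a3 overlap.

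The 6 type IV chains are described by gene pair, and differences between chains were not tested. The chains of the common network, Col4a1 and Col4a2, were measured higher, and Col4a3 to Col4a6, of the specialised networks, lay at -0.09 to -0.02, or at 0.04 to 0.12 after the span correction. None passed the threshold or separated the groups, and the class median was -0.02. Col4a1 lay at 9.62, 9.89 and 9.50 in controls and 10.00, 10.00 and 9.68 in Nfat5(SMC)-/- lungs (difference 0.22, SE 0.14, adjusted p = 0.436). Col4a2 lay at 9.26, 9.68 and 9.30 against 9.74, 9.95 and 9.58 (difference 0.34, SE 0.15, adjusted p = 0.282). Nfat5fl/fl mouse 2 reached the Nfat5(SMC)-/- range in both. That lung was the highest control in 5 of the 6 chains, by a median of 0.37 above its companions, against 0.02 over all probe sets. Nfat5(SMC)-/- mouse 4 was the lowest of its group in 5 of the 6. The 95% intervals were -0.39 to 0.23 for Col4a3, -0.58 to 0.41 for Col4a4 and -0.38 to 0.32 for Col4a5. For Col4a6, which lay below the array median, the interval was -0.21 to 0.18. All overlap that of Col4a1 (-0.11 to 0.56). Within lungs, Col4a2 moved against Col4a1 by 0.12 and Col4a3 against Col4a4 by 0.00, with overlap in both pairs.

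Type VI collagen, the beaded filament that joins cells to fibrils, is assembled from Col6a1, Col6a2 and a longer chain such as that of Col6a3. Col6a2 was measured at 8.10, 8.21 and 8.18 in controls and at 8.83, 8.77 and 8.37 in Nfat5(SMC)-/- lungs. The groups did not overlap (difference 0.49, SE 0.13, 1.41-fold, adjusted p = 0.121). Col6a1 was measured at 9.94, 10.05 and 9.97 against 9.89, 10.28 and 10.18. Nfat5(SMC)-/- mouse 1 was below every control there, and the difference was 0.13 (95% interval -0.14 to 0.41, adjusted p = 0.574). Col6a3 lay at 8.49, 8.62 and 8.31 against 8.08, 8.67 and 8.46 (difference -0.07, 95% interval -0.47 to 0.34, or 0.03 after the span correction), again lowest in Nfat5(SMC)-/- mouse 1. Col6a2 thus moved against Col6a3 by 0.56, with gaps of -0.41 to -0.12 in controls and of -0.10 to 0.75 in Nfat5(SMC)-/- lungs, which do not overlap. Against Col6a1 it moved by 0.36, with overlap. Both gaps were largest in Nfat5(SMC)-/- mouse 1. Col6a4, Col6a5 and Col6a6, which encode the alternatives to the Col6a3 chain, were dim, with differences of 0.02, 0.10 and 0.23. Col6a6 lay at 4.69, 4.86 and 4.62 against 4.91, 4.83 and 5.11, where mouse 2 of each group overlapped (adjusted p = 0.308).

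The multiplexins, whose C-terminal fragments are known as restin and endostatin, were both measured higher. Col15a1 lay at 5.23, 5.23 and 5.16 in controls and at 5.37, 5.66 and 5.78 in Nfat5(SMC)-/- lungs. The groups did not overlap (difference 0.40, SE 0.11, 1.32-fold, adjusted p = 0.137). Leaving out Nfat5(SMC)-/- mouse 1, the lowest of its group, brought the difference to 0.51 and the gene past the threshold. Col18a1, a proteoglycan of vascular basement membranes, lay at 5.63, 5.90 and 5.60 against 6.06, 6.29 and 5.87, and mouse 4 of the Nfat5(SMC)-/- group was below Nfat5fl/fl mouse 2 (difference 0.36, SE 0.14, adjusted p = 0.223).

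Among the 9 fibril-associated collagens, 7 were measured higher and 2 lower (8 and 1 after the span correction), with a median of 0.12. Col16a1, found at the surface of fibrils, lay at 5.17, 5.21 and 5.23 in controls and at 5.99, 5.55 and 5.29 in Nfat5(SMC)-/- lungs, without overlap but with an SD of 0.35 in the latter (difference 0.40, SE 0.17, adjusted p = 0.28). Col22a1, known from tissue junctions, lay at 4.57, 4.56 and 4.47 against 4.95, 4.62 and 4.60 (difference 0.19, adjusted p = 0.40). Col20a1 was measured lower, at 4.85, 4.87 and 4.78 against 4.44, 4.71 and 4.79 (difference -0.19, adjusted p = 0.385). All 3 leaned most on Nfat5(SMC)-/- mouse 1. Col9a2 and Col9a3, chains of type IX collagen, were highest in that mouse at 6.94 and 5.61, while Col12a1 and Col14a1, which coat type I fibrils, were lowest there at 7.08 and 5.95. The differences were 0.35 for Col9a2, 0.28 for Col9a3, -0.06 for Col12a1 and 0.12 for Col14a1, and Col9a1 and Col19a1 differed by 0.02 and 0.04. Without that mouse, the difference of Col9a3 was -0.01 and that of Col14a1 was 0.36.

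All 4 transmembrane collagens were measured higher, with a median of 0.21, but their mean deviation was 0.45 in Nfat5(SMC)-/- mouse 1 and -0.03 and -0.16 in mice 2 and 4 of that group. Col23a1 lay at 7.41, 7.70 and 7.44 in controls and at 7.98, 7.67 and 7.70 in Nfat5(SMC)-/- lungs, which overlap (difference 0.27, SE 0.12, adjusted p = 0.307). Col13a1, of cell adhesion sites, was measured at 6.80, 6.89 and 6.96 against 7.76, 7.18 and 6.47. Its Nfat5(SMC)-/- lungs lay on both sides of the controls, so that the difference of 0.25 became -0.06 without mouse 1. Col17a1, the hemidesmosome collagen of basal epithelium, was 5.83 in Nfat5(SMC)-/- mouse 1 and 4.75 to 5.04 in the other 5 lungs (difference 0.17, or -0.16 without that mouse), and Col25a1, made mainly by neurons, differed by 0.01. The summed signal of 7 airway basal cell markers was also highest in that lung, at 289 against 155 to 251 in the others, and its part in the Col17a1 value was not tested.

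The lowest difference of all belonged to Col8a1, a short-chain collagen made by vascular smooth muscle and endothelium. It lay at 6.45, 5.71 and 6.41 in controls and at 6.38, 5.69 and 5.72 in Nfat5(SMC)-/- lungs. Each group held both high and low lungs (difference -0.26, 95% interval -0.92 to 0.40, adjusted p = 0.657). For this gene Nfat5(SMC)-/- mouse 1 was the highest of its group and Nfat5fl/fl mouse 2 the lowest of its own. Without both, the remaining lungs differed by -0.72, past the threshold, a call that rests on removing the lungs that made the groups overlap. Its partner Col8a2 lay at 4.83, 4.79 and 4.74 against 5.12, 4.95 and 4.66 and differed by 0.12. Col7a1 of anchoring fibrils lay at 4.99, 4.94 and 5.0 against 4.91, 5.16 and 4.98 and differed by 0.04. The groups overlapped in both. Col10a1 of hypertrophic cartilage differed by -0.02. Col26a1 lay at 4.85, 5.0 and 4.97 against 4.89, 4.94 and 4.94 and differed by -0.02. Col28a1 separated the groups within a narrow range, at 4.51, 4.47 and 4.45 against 4.52, 4.55 and 4.54 (difference 0.06, adjusted p = 0.618).

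Seen by lung rather than by gene, the mean deviation of the 44 collagens from their 6-lung mean was -0.08, -0.03 and -0.10 in the controls, and 0.14, 0.09 and -0.02 in the Nfat5(SMC)-/- group. All Nfat5(SMC)-/- lungs were above the controls, with mouse 4 only just above control mouse 2. Nfat5(SMC)-/- mouse 1 held the highest or lowest of the 6 values for 25 collagens (56.8%), where it did so for 62.7% of all probe sets. The map of each gene in each lung shows Col5a1 and Col1a1 above their mean in every Nfat5(SMC)-/- lung. Col9a2, Col9a3 and Col17a1 were darkest in Nfat5(SMC)-/- mouse 1. Col13a1 was high in that mouse (7.76) and low in mouse 4 of the group (6.47).

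**Figure D3:**
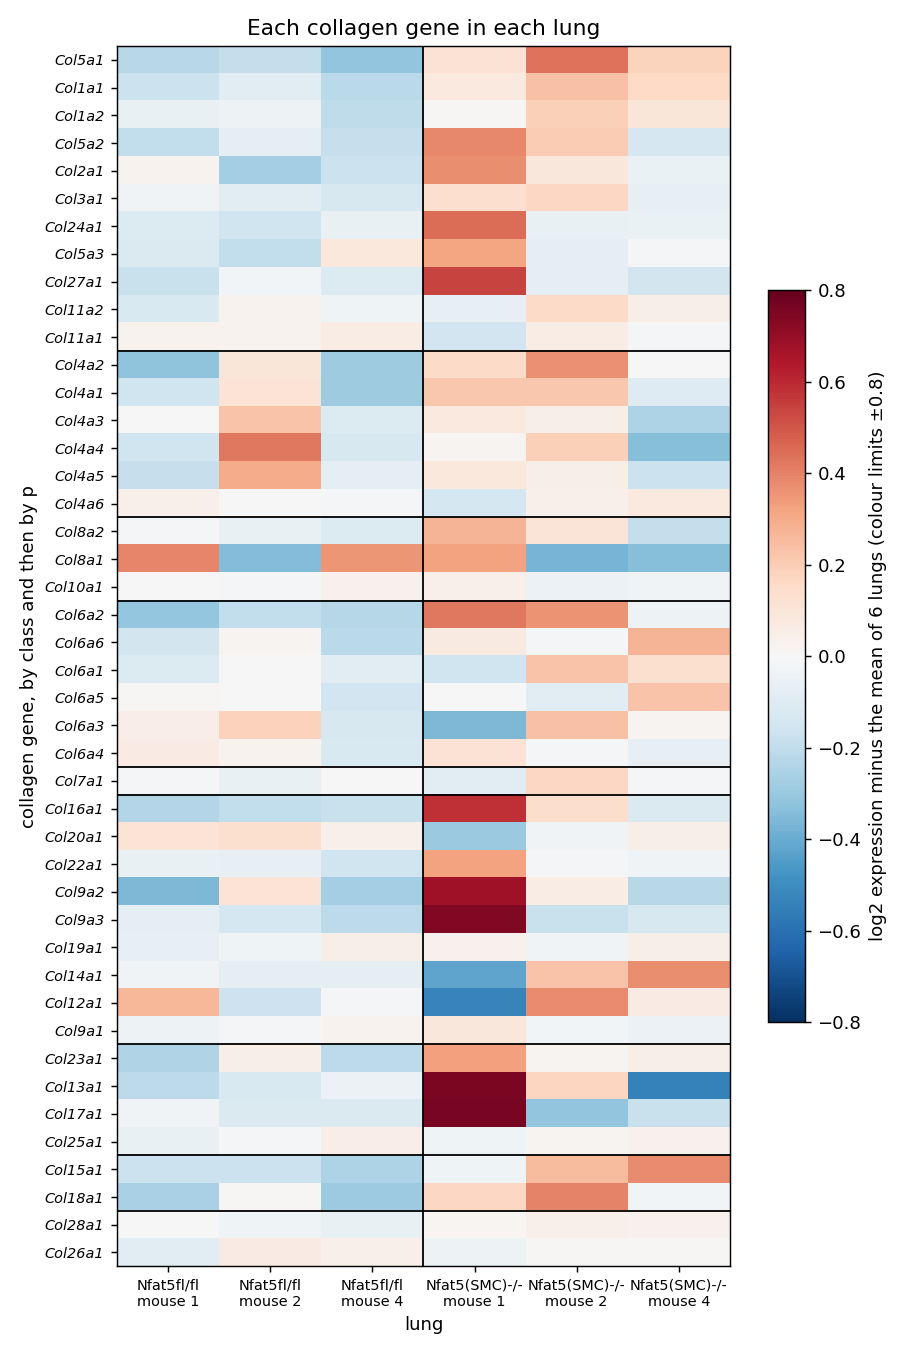
Log2 expression of the 44 collagens in each lung minus the mean of the 6 lungs (colour, red higher and blue lower), with genes in rows by class and lungs in columns. Col5a1 and Col1a1 are above their mean in all 3 Nfat5(SMC)-/- lungs, whereas Col9a3, Col13a1 and Col17a1 are darkest in Nfat5(SMC)-/- mouse 1.

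Markers of other cell types were compared beside the collagens. All 14 adipocyte markers were measured higher in Nfat5(SMC)-/- lungs, with a median of 1.82 and 5 past the threshold, and their summed signal was 1520 to 2370 in controls and 5960 to 9360 in Nfat5(SMC)-/- lungs. Adipocyte genes were highest in Nfat5(SMC)-/- mouse 4 for 10 of the 14 (Lep, Adipoq, Fabp4 and others). That mouse was also highest for 6 of the 44 collagens, Col15a1 among them, and for 2809 of all 25428 probe sets, a similar share. Col5a1, Col1a1 and Col1a2 were highest in Nfat5(SMC)-/- mouse 2. Plin1, which coats fat droplets, rose, with values between 4.98 and 5.08 in controls and between 6.68 and 7.22 in Nfat5(SMC)-/- lungs (adjusted p = 0.0416). Mesothelial markers summed to 1020 to 1100 against 1160 to 1740, with 0 of 7 past the threshold. Fibroblast markers summed to 12600 in each control and 11300 to 12000 in Nfat5(SMC)-/- lungs, with a median of -0.10. They went both ways, with 5 measured higher (Pi16 by 0.55) and 7 lower (Npnt by -0.33), and 0 past the threshold. Smooth muscle markers summed to 3900 to 5330 in controls against 4170 to 4600, with 4 measured higher and 6 lower. The remaining lists had 0 markers past the threshold and medians of 0.01 (pericyte), -0.04 (endothelial), -0.10 (alveolar epithelial), 0.16 (airway basal), 0.09 (chondrocyte), 0.02 (cardiac muscle) and 0.17 (macrophage). The part of adipocytes, mesothelium or any other cell type in the collagen values was not tested.

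Before a collagen can be secreted its chains are hydroxylated, glycosylated and folded in the endoplasmic reticulum. Of the 17 genes for these steps, 15 were measured higher and 2 lower, with a median of 0.18 and 0 past the threshold. At an unadjusted p under 0.05, 7 of the 17 were higher, against 8.19% of all probe sets. For 8 genes (47.1%) the groups did not overlap, against 11.8% of all probe sets and 15.6% of those above the array median, where 16 of the 17 lay. Fkbp10, a prolyl isomerase that assists folding of type I procollagen, lay at 7.37, 7.62 and 7.45 in controls and at 8.09, 8.02 and 7.85 in Nfat5(SMC)-/- lungs (difference 0.51, SE 0.10, adjusted p = 0.073). Serpinh1, the collagen chaperone HSP47, lay at 8.38, 8.52 and 8.38 against 9.22, 8.99 and 8.66 (difference 0.53, adjusted p = 0.127). Both genes separated the groups in all lungs. P3h3 and P3h4, of the complex that serves lysyl hydroxylation, differed by 0.40 and 0.58, Colgalt1, which adds galactose to hydroxylysine, by 0.49, the lysyl hydroxylase Plod3 by 0.35 and the prolyl hydroxylase subunit P4ha2 by 0.33, with adjusted p from 0.0953 to 0.177.

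Downstream steps showed counts in both directions. Of 8 secretion genes, 3 were measured higher and 5 lower, but 6 and 2 after the span correction. Sec24d, a COPII coat protein, lay at 8.05, 7.96 and 8.05 against 8.32, 8.23 and 8.24 (difference 0.24, adjusted p = 0.119), and Mia3, which loads procollagen into transport carriers, at 7.58, 7.58 and 7.59 against 6.68, 7.20 and 7.32 (difference -0.51, adjusted p = 0.174). Both separated the groups, in opposite directions, each being 12.5% of the list, against 11.8% of all probe sets upward and 15.0% downward. Among 8 propeptide processing genes, Adamts2, which removes the N-propeptide, differed by 0.37 (8.12 to 8.19 against 8.35 to 8.64, adjusted p = 0.109), while 6 of the 8 were measured lower, or 4 after the span correction, and the median was -0.10. Among 7 cross-linking genes, the transglutaminase Tgm2 differed by 0.33, and the lysyl oxidases Lox and Loxl4 by -0.27 and -0.17. Lox lay at 8.33 to 8.53 in controls and 8.08 to 8.23 in Nfat5(SMC)-/- lungs (adjusted p = 0.161), and all 3 separated the groups. That is 14.3% of this short list upward and 28.6% downward, against 11.8% and 15.0% of all probe sets.

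Of the 11 small proteoglycans and other proteins that guide fibril assembly, Fmod (fibromodulin, which binds type I collagen and sets fibril diameter) rose. It lay at 6.60, 6.38 and 6.41 in Nfat5fl/fl and at 7.42, 7.33 and 7.25 in Nfat5(SMC)-/- lungs. All Nfat5(SMC)-/- lungs exceeded all controls by a wide margin against SDs of 0.12 and 0.08 (difference 0.87, SE 0.09, adjusted p = 0.0416). The other 10 did not pass, with a median over the list of 0.01, and Lum (lumican) differed by 0.52 with overlap (adjusted p = 0.30). Of the 10 collagen receptors, Itga2, the alpha 2 integrin subunit, fell. It lay at 8.87, 8.93 and 8.97 in controls and at 8.31, 8.20 and 8.34 in Nfat5(SMC)-/- lungs (difference -0.64, SE 0.07, adjusted p = 0.0416). Fmod and Itga2 lost the call without any one lung other than Nfat5(SMC)-/- mouse 1, with adjusted p from 0.0834 to 0.228 and differences of 0.83 to 0.94 and of -0.67 to -0.60, with cyclic loess normalization (adjusted p = 0.0578 for each) and with a mean-dependent prior. Itga2 also lost it after the span correction, at -0.53.

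Itga1, the alpha 1 subunit for type IV collagen, lay at 11.09, 10.80 and 11.06 in controls and at 10.55, 9.93 and 9.93 in Nfat5(SMC)-/- lungs, without overlap (difference -0.85, SE 0.19, adjusted p = 0.0904). Of the 10 receptors, 7 were measured lower, with a median of -0.18, and 6 separated the groups downward, which is 60.0% against 15.0% of all probe sets and 20.8% of those above the array median, where 8 of the 10 lay. The 6 include the dim Itga10 and Gp6, which lay below that median. Itgb1, the common partner of the integrin alpha subunits and itself among the 6, differed by -0.27 and the discoidin receptor Ddr2 by -0.41. In the other direction, Itga11, a fibroblast receptor for fibrillar collagen, differed by 0.41 and Ddr1 by 0.38. The adjusted p of these genes by limma ran from 0.163 to 0.221. The 13 degradation genes showed 5 higher and 8 lower values (6 and 7 after the span correction), and 0 passed by limma. At an unadjusted p under 0.05, 2 were higher and 1 lower of the 13, near the 8.19% and 11.1% of all probe sets. The collagen-cleaving Ctsk and Mmp8 differed by 0.41 and 0.28, and Mmp3 by -0.37, with adjusted p from 0.197 to 0.228.

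**Figure D4:**
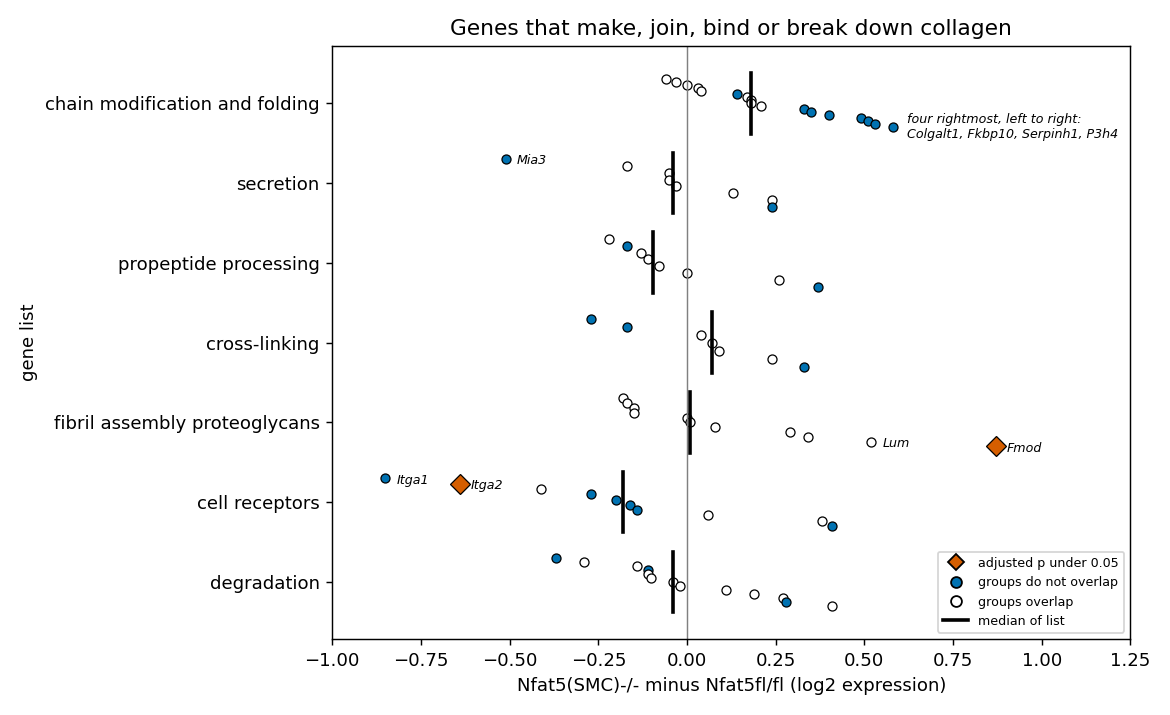
Difference in log2 expression (Nfat5(SMC)-/- minus Nfat5fl/fl) of genes that modify, secrete, process, join, bind or break down collagen, with a point per gene and a bar at each list's median. Fmod (0.87) and Itga2 (-0.64) passed the adjusted threshold, and the modification and folding genes lie mostly right of 0 (median 0.18).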

How the data were processed

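The authors deposited log2 expression values made from GeneChip scans with RMA (no version given in the sources used here), quantile-normalized, with a custom chip definition of 1 probe set per Entrez gene; sorted values of the 6 arrays agreed within 0.0015. Of 25428 probe sets, 25269 had 1 symbol and 159 none. Differences were tested by the moderated test of limma 3.58.1 (R 4.3.3; two-sided, with p adjusted after Benjamini and Hochberg across the 25428 probe sets, and a threshold of 0.05), with no covariate. With 3 lungs a group the smallest p of an exact permutation test is 0.1, and no such test is given. The mice are separate animals, and each p-value sets a difference against the spread between the 3 lungs of each group, moderated over all probe sets. The arrays' number limits the precision. Summed signals add linear values (2 to the log2 expression) over a list. Lists were collagen classes, collagen-handling genes and cell type markers. Members and lists were chosen with earlier results of these data known. Values per lung are given for the 16 collagens of smallest p, for the main type I, III, IV, V, VI and XVIII chains and up to 2 of each class, and up to 3 handling genes or markers a direction could be named; Col6a3, Col9a2, Col9a3, Col12a1, Col14a1, Col17a1, Col24a1 and Col27a1, and further handling genes beyond 3, were added after their values were seen. Alternatives were array weights, cyclic loess, a gene span correction, other priors, filters on dim probe sets, the replicate block, the methods' t-test and leaving lungs out. The fit was tested on simulated data. Normoxic lungs were not analysed here.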

Additional observations from a re-analysis of the deposited data

How the results depend on the processing

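The number of collagens past the threshold was 0 in the analysis reported and in 13 of 16 alternatives, 5 with array weights, 2 without both Nfat5(SMC)-/- mouse 1 and Nfat5fl/fl mouse 2 (called both lungs here), and 0 to 2 when single lungs were left out. Over all probe sets, 208 became 3263 with array weights, 1452 without both lungs, 112 above the array median, 43 with the span correction (22 higher and 21 lower, against 66 and 142), 2 with a mean-dependent prior, 1 with cyclic loess, 0 with the methods' t-test, and 0 to 980 when single lungs were left out. The replicate block gave 0 collagens and 0 probe sets. Nothing in the labels says that the mouse numbers pair the lungs. Same-numbered deviations from the group means correlated at 0.133, 0.411 and 0.078, and differently numbered ones at -0.329 to 0.145. Whether the numbers pair the lungs was not settled. The span correction moved the median over all collagens to 0.21, of fibrillar collagens to 0.30 and of the collagens outside fibrillar and type IV to 0.19. The fibrillar median was 0.12 without both lungs and 0.15 to 0.30 without single lungs. The median of the other collagens was 0.21 above the array median and 0.06 to 0.12 without single lungs. The cause of these changes was not tested. Fmod lost its call in 9 and Itga2 in 11 of the 16 alternatives, and both kept their sign. Some differences changed sign. Without single lungs, Col13a1 ran from -0.06 to 0.59, Col7a1 from -0.03 to 0.09, Col26a1 from -0.06 to 0.01, Mia2 from -0.12 to 0.05, Mrc2 from -0.04 to 0.16, P4ha1 from -0.13 to 0.04 and Plod2 from -0.18 to 0.01. Col17a1 ran from -0.16 to 0.38, and Col4a3, Col4a4, Col4a5, Col4a6, Col6a3, Col6a4, Col9a1, Col9a3, Col12a1, Col14a1, Col25a1 and Col27a1 also crossed 0 without single lungs. Without both lungs, Col13a1 was -0.06, Col26a1 0.03 and Plod2 0.05. With the span correction, Col26a1 was 0.11, Mia2 0.07, P4ha1 0.04, Plod2 0.04, Mmp16 0.03 and Tll1 0.00. With array weights, Mia2 was 0.02 and Plod2 0.11, and with cyclic loess Col26a1 was 0.00. With 3 lungs a group, and collagens such as Col10a1 near the lower quartile of the array, small differences could not be resolved.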
